A study of Homo sapiens with 4 samples.

Results

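The aldehyde dehydrogenases described here are 10 genes, ALDH1A1, ALDH1A2, ALDH1A3, ALDH1B1, ALDH1L2, ALDH2, ALDH3A1, ALDH3A2, ALDH3B1 and ALDH7A1, taken from 18417 genes that had a probe set annotated to that gene alone. They were chosen by gene symbol, with no measured value in the rule, and each gene is represented by its probe set with the highest mean signal. All 10 were measured. The samples were MDA-MB-231 cells, an established human breast cancer line of basal-like, mesenchymal character, grown in DMEM with fetal bovine serum, penicillin and streptomycin. With a lipid reagent they received either the vector or a plasmid that carries FOXC1, a forkhead transcription factor of basal-like breast tumours. The 2 FOXC1 and the 2 vector samples are named as biological replicates and were hybridised to 1 Affymetrix whole-transcript gene array each. Whether the transfection was transient or stable, and when the cells were harvested, is not stated in the labels. Values are linear PLIER signals, a summary over the probes of a probe set, and changes are FOXC1 minus vector on the scale of log2(signal + 16). A gene passed when its limma p-value, adjusted by Benjamini-Hochberg over all probe sets with a gene symbol, was below 0.05.

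Aldehyde dehydrogenases oxidise aldehydes to carboxylic acids with NAD or NADP as the cofactor. The ALDH1A enzymes turn retinaldehyde into retinoic acid, the ligand of the nuclear retinoic acid receptors, and their activity or protein is widely used to mark stem-like cells of the breast and of breast tumours. The ALDH3 enzymes handle medium- and long-chain fatty and aromatic aldehydes, ALDH2 and ALDH1B1 oxidise acetaldehyde in mitochondria, ALDH7A1 acts in lysine breakdown, and ALDH1L2 is the mitochondrial enzyme of formyl-folate oxidation.

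In FOXC1 cells 1 of the 10 genes rose and 3 fell. ALDH1A3 rose 1.44-fold, ALDH7A1 fell 1.29-fold, ALDH3A2 fell 1.17-fold and ALDH3B1 fell 1.16-fold, while ALDH1A1, ALDH1A2, ALDH1B1, ALDH1L2, ALDH2 and ALDH3A1 did not pass. For comparison, 31.4% of all 18417 genes passed, 15.9% higher and 15.5% lower, so 4 of 10 lies near the share over all genes. Of the 10 genes 0 passed with a change of at least 1.5-fold, against 3.02% of all genes. With each array centred on its median, the split over all genes moved from 2925 higher and 2852 lower to 1739 higher and 3396 lower, and without vector replicate 2 only 1913 genes passed as higher. In both cases ALDH1A3 still passed as higher. The median log2 change of the 10 genes was 0.03, as it was over all genes, and their median absolute log2 change was 0.073 against 0.107 over all genes.

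**Figure D1:**
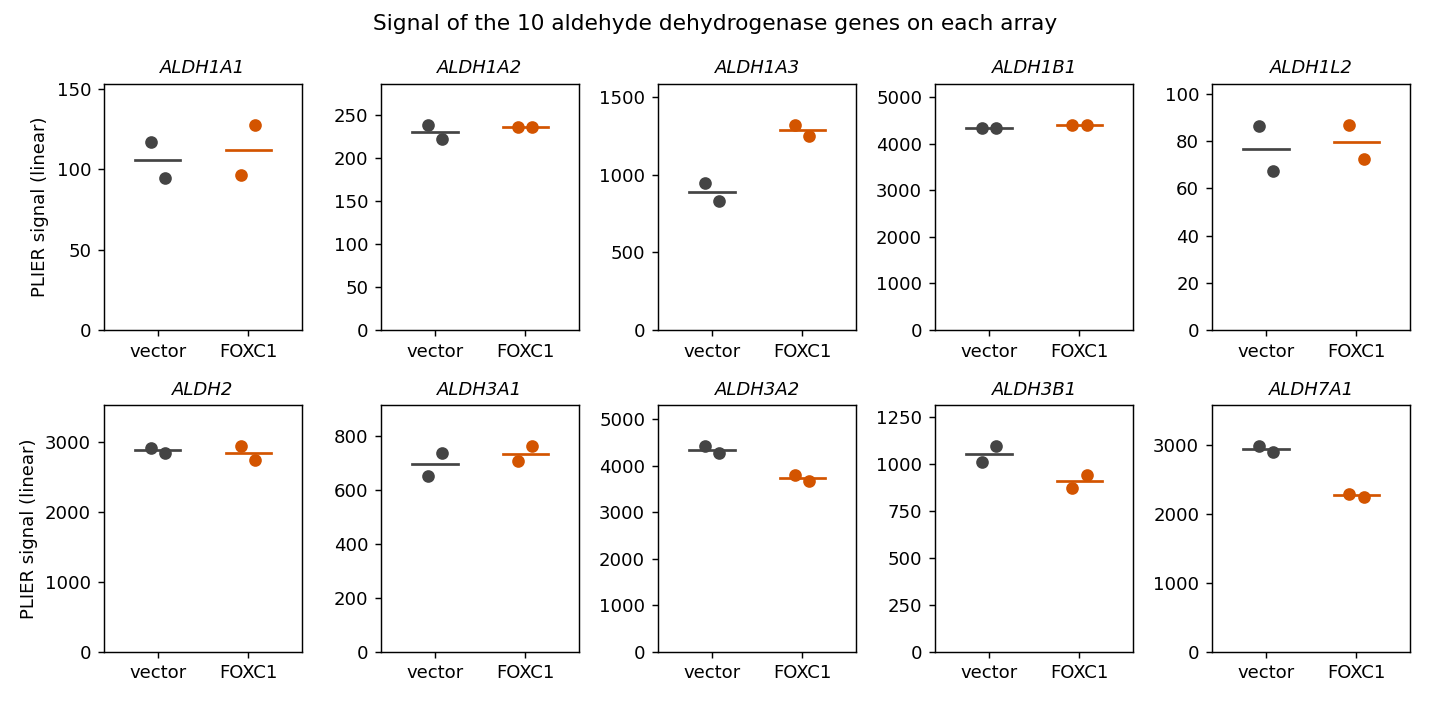
Linear PLIER signal (vertical axis, each panel with its own scale from 0) of the 10 aldehyde dehydrogenase genes on the 2 vector and 2 FOXC1 arrays; points are arrays and bars are group means. The FOXC1 arrays lie above both vector arrays for ALDH1A3 and ALDH1B1 and below both for ALDH3A2, ALDH3B1 and ALDH7A1.

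The upstream sequences of members are shown to let the retinaldehyde dehydrogenases be compared with each other and with the member that fell most. The RefSeq promoter table (GRCh38.p14) held 10 start sites of 7 members. It held none for ALDH1L2, ALDH2 and ALDH3A1. The 250 bases before the start of 4 members follow, 5′ to 3′ on the strand of the gene. Capitals mark GC boxes (GGGCGG) and CCAAT boxes (CCAAT) on either strand.
ALDH1A1 (chr9:72953054-72953303, minus strand): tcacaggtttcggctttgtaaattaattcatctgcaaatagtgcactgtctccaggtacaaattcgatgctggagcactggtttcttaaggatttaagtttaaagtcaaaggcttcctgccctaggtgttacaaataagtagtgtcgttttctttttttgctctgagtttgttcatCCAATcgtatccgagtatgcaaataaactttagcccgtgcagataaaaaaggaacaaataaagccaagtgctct
ALDH1A2 (chr15:58065712-58065961, minus strand): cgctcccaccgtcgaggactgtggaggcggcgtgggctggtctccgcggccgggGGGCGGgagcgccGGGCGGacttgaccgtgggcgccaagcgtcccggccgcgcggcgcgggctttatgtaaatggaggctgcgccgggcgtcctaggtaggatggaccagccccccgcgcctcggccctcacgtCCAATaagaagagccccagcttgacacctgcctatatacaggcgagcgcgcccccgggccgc
ALDH1A3 (chr15:100879581-100879830, plus strand): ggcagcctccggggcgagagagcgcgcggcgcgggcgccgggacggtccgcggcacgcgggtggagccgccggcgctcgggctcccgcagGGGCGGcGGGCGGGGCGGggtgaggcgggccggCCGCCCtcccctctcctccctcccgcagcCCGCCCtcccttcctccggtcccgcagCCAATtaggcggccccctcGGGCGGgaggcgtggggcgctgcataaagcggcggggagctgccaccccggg
ALDH7A1 (chr5:126595220-126595469, minus strand): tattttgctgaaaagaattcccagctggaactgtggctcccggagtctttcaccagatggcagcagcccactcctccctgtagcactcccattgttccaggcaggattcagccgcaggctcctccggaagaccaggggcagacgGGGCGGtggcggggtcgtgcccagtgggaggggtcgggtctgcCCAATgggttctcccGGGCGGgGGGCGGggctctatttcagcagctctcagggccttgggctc
The ALDH1A3 window had 82.4% G and C, 38 CG pairs and 6 GC boxes, a pair of which share a base. That of ALDH1A2 had 72.8% G and C, 33 CG pairs and 2 GC boxes, and that of ALDH7A1 64% G and C, 11 CG pairs and 3 GC boxes. The ALDH1A1 window differed from these 3, with 38.4% G and C, 6 CG pairs and 0 GC boxes. Each of the 4 windows shown held 1 CCAAT box. A second start site of ALDH1A2, not shown, had 41.6% G and C, 1 CG pair, 0 GC boxes and 0 CCAAT boxes. The median over all 35116 start sites was 58% G and C. Across all start sites 42.6% had a GC box and 32.0% a CCAAT box, against 6 of 10 member start sites for each, and no GC box overlapped a CCAAT box there. The exact forkhead motifs GTAAATA and GTAAACA, searched on both strands, occurred in 0 of the 10 member windows and in 2.39% and 2.98% of all windows. Other forms of the forkhead site were not searched, so the windows may hold some. GCGTG, the core of the motif bound by the aryl hydrocarbon receptor, occurred in 3 of 10 member windows, including that of ALDH1A3, and in 32.2% of all windows. These matches describe letters in a short window and were not set against the changes in signal.

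Of the retinaldehyde dehydrogenases, ALDH1A3 alone passed, and ALDH1A3 is one of the isoforms most often tied to aldehyde dehydrogenase activity in breast cancer cells. Its probe set 7986446 gave 944 and 829 in vector and 1322 and 1249 in FOXC1 cells. Both FOXC1 values lie above both vector values, and the gap between the groups is wider than the gap within either. The group means were 886 ± 81.7 and 1286 ± 51.9 (SD, n = 2 each), a log2 change of 0.53 ± 0.06 SE with a 95% interval from 0.40 to 0.66 and a limma adjusted p of 9.39e-07. Ranked by log2 change, it was number 205 among the 18417 genes, from the highest rise down. A second, dimmer ALDH1A3 probe set, 7986444, gave 267 and 267 in vector and 320 and 349 in FOXC1 cells, a log2 change of 0.31 ± 0.09 SE (limma adjusted p = 0.0119). Both probe sets therefore lay higher on both FOXC1 arrays, but they were read from the same 4 RNA samples and are not separate replicates.

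The other retinaldehyde dehydrogenases were dim. ALDH1A1, the isoform of liver and of many stem-cell assays, gave 117 and 94.7 in vector and 96.1 and 128 in FOXC1 cells, and ALDH1A2, the main isoform of the early embryo, gave 239 and 222 in vector and 237.0 and 237.1 in FOXC1 cells. The groups overlapped for both genes. The log2 changes were 0.06 with a 95% interval from -0.22 to 0.35 for ALDH1A1 (limma adjusted p = 0.768) and 0.04 with an interval from -0.16 to 0.24 for ALDH1A2 (limma adjusted p = 0.812). Their mean signals lay at percentiles 7.98 and 21.3 of the tested probe sets, so that a fall in either gene might not have been visible. The sign for ALDH1A2 turned with quantile normalization and with median centring, and that for ALDH1A1 turned without vector replicate 2 (log2 -0.07) and without FOXC1 replicate 2 (log2 -0.11).

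ALDH2 and ALDH1B1 were bright and did not pass. ALDH2 gave 2923 and 2851 in vector and 2942 and 2745 in FOXC1 cells, with overlapping groups and a log2 change of -0.02 (95% interval -0.11 to 0.06, limma adjusted p = 0.724). ALDH1B1, its close relative, gave 4329 and 4334 in vector and 4409 and 4411 in FOXC1 cells. The FOXC1 values lie just above, but the log2 change of 0.03 (95% interval -0.04 to 0.09, limma adjusted p = 0.585) did not pass and turned negative with median centring. For both genes the interval leaves room for changes of at most 0.11 in either direction on the log2 scale. ALDH1L2 was the dimmest member, at percentile 4.35, with 86.3 and 67.3 in vector and 87.0 and 72.6 in FOXC1 cells. Its groups overlapped (log2 0.05, 95% interval -0.24 to 0.34, limma adjusted p = 0.827), and its sign turned with quantile normalization, without vector replicate 2 (log2 -0.10) and without FOXC1 replicate 1 (log2 -0.06).

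ALDH7A1, also called antiquitin, had the largest fall of the 10 genes. It gave 2972 and 2892 in vector and 2289 and 2239 in FOXC1 cells, and the groups were far apart relative to their spread. The means were 2932 ± 57.0 and 2264 ± 35.7 (SD, n = 2 each), a log2 change of -0.37 ± 0.04 SE with a 95% interval from -0.45 to -0.29 and a limma adjusted p of 1.75e-07. Its fall ranked number 870 among all genes.

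Of the ALDH3 genes, ALDH3A2 and ALDH3B1 fell and ALDH3A1 did not pass. ALDH3A2, the fatty aldehyde dehydrogenase of the endoplasmic reticulum, gave 4412 and 4273 in vector and 3790 and 3659 in FOXC1 cells, without overlap, a log2 change of -0.22 ± 0.03 SE (limma adjusted p = 2.76e-05). ALDH3B1, which acts on aldehydes from lipid peroxidation, gave 1007 and 1093 in vector and 870 and 942 in FOXC1 cells. The groups of ALDH3B1 did not overlap, but the gap between them was smaller than the spread within either. Its log2 change was -0.21 ± 0.06 SE (limma adjusted p = 0.0128), and the call was lost without vector replicate 2 (log2 -0.15, adjusted p = 0.244), without FOXC1 replicate 1 (log2 -0.15, adjusted p = 0.067), without a variance trend (adjusted p = 0.0987) and in a fit over all rows of the table (adjusted p = 0.0679). ALDH3A1, the corneal and stress-responsive isoform, gave 654 and 737 in vector and 710 and 763 in FOXC1 cells, with overlapping groups and a log2 change of 0.08 (95% interval -0.07 to 0.23, limma adjusted p = 0.426). Without vector replicate 1 its log2 change was -0.0027. ALDH3B1 and ALDH3B2 are close paralogs whose probes could bind both transcripts, and ALDH3B2 gave 413 and 384 in vector and 429 and 415 in FOXC1 cells (log2 0.08, limma adjusted p = 0.495).

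**Figure D2:**
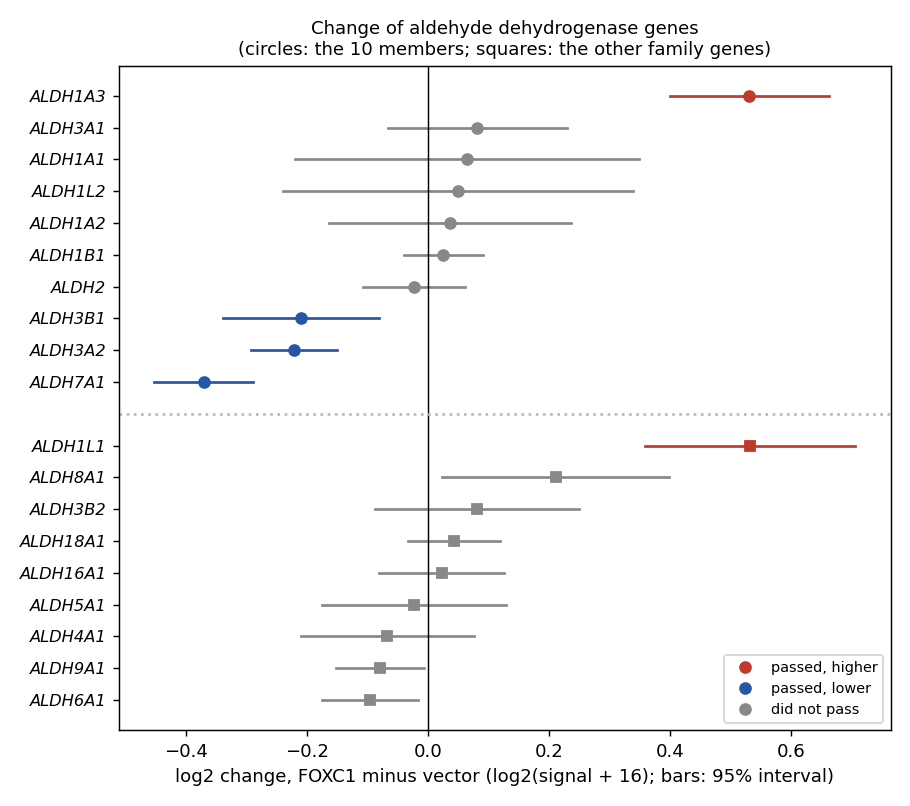
Log2 change, FOXC1 minus vector (horizontal axis), with its 95% interval from limma for the 10 members (circles) and 9 other aldehyde dehydrogenase genes (squares); colour marks genes that passed. ALDH1A3 and ALDH1L1 lie to the right, both at 0.53, and ALDH3B1, ALDH3A2 and ALDH7A1 lie to the left, while the widest intervals belong to the dim ALDH1A1 and ALDH1L2.

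Groups did not overlap in 5 of the 10 genes, against 63.5% of all genes, and the 5 were the 4 that passed and ALDH1B1. FOXC1 lay above in 2, against 37.1% of all genes, and below in 3, against 26.4%. ALDH1A3, ALDH3A2 and ALDH7A1 passed under all 16 alternatives run, ALDH3B1 under 12 of 16, and the other 6 genes under none of those in which they were tested (14 to 16 each). Not all of these alternatives were strict checks. A gene that had passed could not fail under the looser limit on the adjusted p. For ALDH3A2, ALDH3B1 and ALDH7A1 the mean over probe sets gave the log2 change already reported. The replicate block gave smaller adjusted p-values than the limma fit without it for every member that passed. The log2 change of ALDH1A3 ranged from 0.42, as the mean over its probe sets, to 0.62 without vector replicate 1, and that of ALDH7A1 from -0.41 to -0.35.

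**Figure D3:**
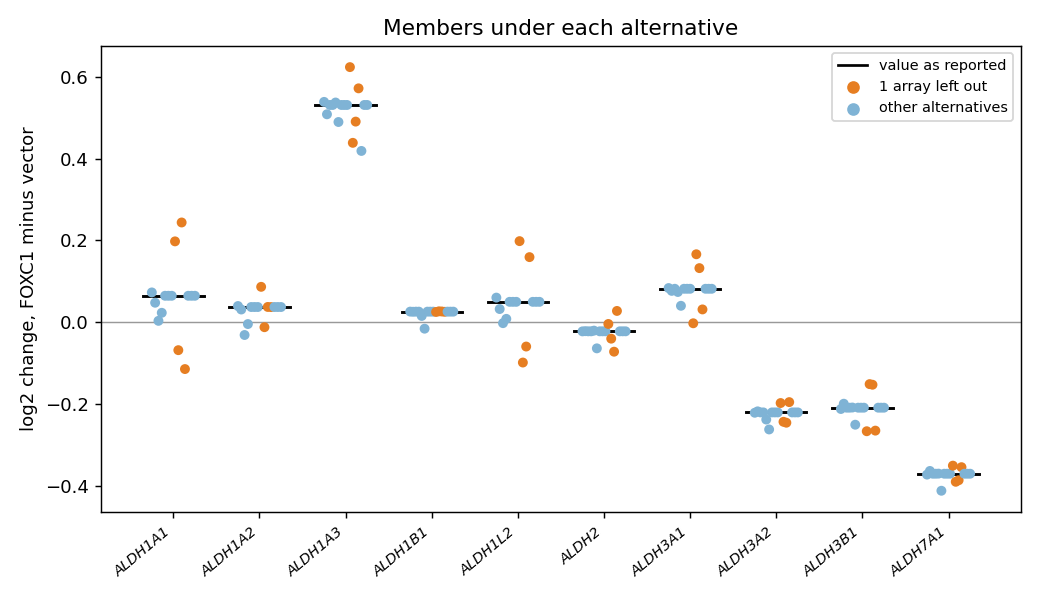
Log2 change, FOXC1 minus vector (vertical axis), of each member as reported (bar) and under each alternative, with fits leaving out 1 array in orange and the others in blue. The points of ALDH1A3 stay between 0.42 and 0.62 and those of ALDH7A1 between -0.41 and -0.35, while those of ALDH1A1 and ALDH1L2 fall on both sides of 0.

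Of the 9 other family genes measured, ALDH1L1 alone passed. ALDH1L1, the cytosolic formyl-folate dehydrogenase and the counterpart of ALDH1L2, gave 294 and 307 in vector and 454 and 429 in FOXC1 cells, a rise of 1.45-fold (log2 0.53 ± 0.08 SE, limma adjusted p = 3.41e-05). Its FOXC1 values lie well above both vector values. ALDH8A1, first described as a retinaldehyde dehydrogenase, gave 267 and 295 in vector and 322 and 333 in FOXC1 cells without passing (log2 0.21, limma adjusted p = 0.0831). The remaining 7 genes had log2 changes from -0.10 to 0.08. Without FOXC1 replicate 1 the count was 2 rather than 1, and it was 3 with quantile normalization and with median centring.

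The members were also set beside their neighbours on the chromosomes. Of the 5 nearest measured genes on each side of ALDH1A3, 4 passed as higher and 0 as lower by limma (5 and 0 at an unadjusted p of 0.05), against 15.9% and 15.5% of all genes, and the median log2 change was 0.17. The highest neighbour was SNRPA1, a spliceosome protein gene, at 0.59, followed by LINS1 at 0.23, SELENOS at 0.20 and CHSY1 at 0.18, while LRRK1, the next gene, did not pass (log2 0.13). The rise of ALDH1A3 exceeded that of 9 of these 10 neighbours, and the part of a shift of the whole region in it was not tested. The neighbours of ALDH7A1 were mixed (median 0.0001), with 2 higher and 3 lower, among them C5orf63 at -1.39 and MARCHF3 at 0.35. Those of ALDH3A2 had a median of -0.03, with ULK2 (-0.66) the only call, and those of ALDH3B1 a median of 0.03, with UNC93B1 (-0.36) and TCIRG1 (-0.18) lower. ALDH3A1 is the second measured gene after ALDH3A2 in this order, with SLC47A2 between them (log2 0.11, limma adjusted p = 0.441). Members that did not pass had neighbours called too. Those higher and lower were 0 and 4 for ALDH1A1 (median -0.10), 0 and 3 for ALDH1A2, and 2 and 2 for ALDH1B1. They were 4 and 2 for ALDH1L2, 2 and 1 for ALDH2, and 0 and 2 for ALDH3A1. Neighbours called in mostly or only 1 direction were thus not particular to ALDH1A3.

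**Figure D4:**
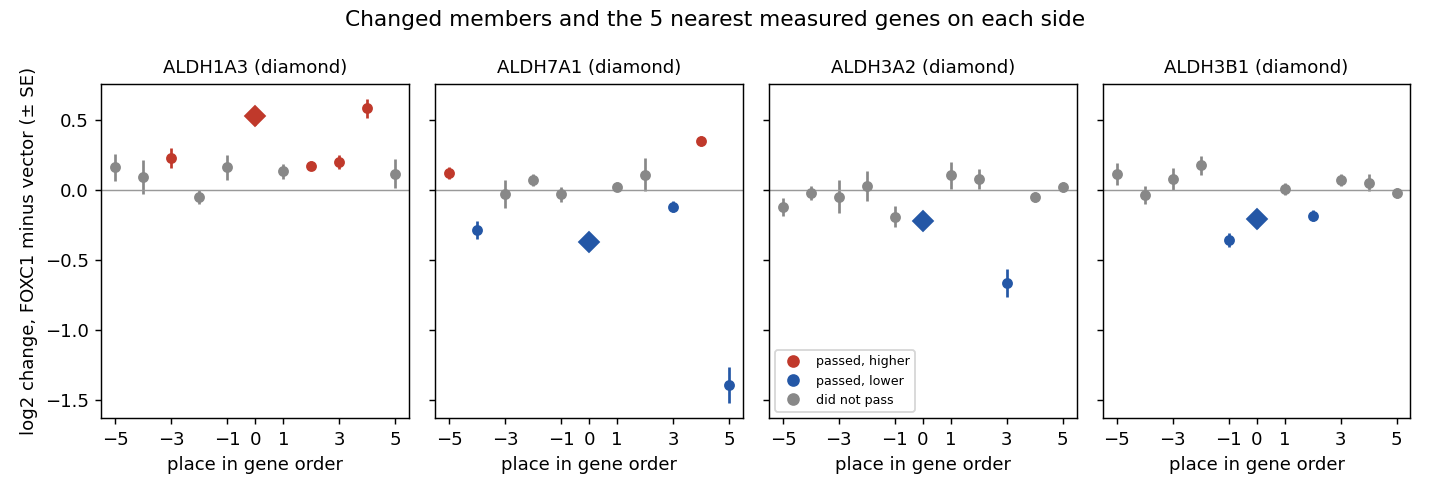
Log2 change, FOXC1 minus vector, with SE (vertical axis) of the 4 members that passed (diamonds) and of the 5 nearest measured genes on each side, by place in gene order (horizontal axis); colour marks genes that passed. Of the 10 neighbours of ALDH1A3, 4 passed as higher and 0 as lower, while those of ALDH7A1 passed in both directions.

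Downstream of the ALDH1A enzymes, retinoic acid acts through RAR and RXR receptors, is carried by binding proteins and is cleared by CYP26 enzymes. The related list held genes of these steps together with many genes of retinoid supply, among them STRA6, LRAT and RDH10. Of 21 measured genes of this list 3 fell and 1 rose (17 did not pass; median log2 -0.01), which is 19% called against 31.4% of all genes. The receptor gene RARG gave 1111 and 1070 in vector and 590 and 505 in FOXC1 cells, a 1.97-fold fall (log2 -0.98 ± 0.07 SE, limma adjusted p = 6.04e-10). RXRA, the shared partner of many nuclear receptors, gave 2080 and 1956 in vector and 1239 and 1192 in FOXC1 cells, a 1.65-fold fall (log2 -0.72 ± 0.05 SE, limma adjusted p = 2.12e-10). In both genes the lowest vector value is far above the highest FOXC1 value, whereas RARB (194 and 190 against 167 and 154) and RXRB did not pass (limma adjusted p = 0.088 and 0.0665). CRABP2, which delivers retinoic acid to the nucleus, fell 1.17-fold and CYP26A1, which degrades it, rose 1.13-fold. The calls of CRABP2 and CYP26A1 were lost without vector replicate 1 (limma adjusted p = 0.292 and 0.232) and without vector replicate 2 (0.106 and 0.169), which left 2 calls in the list, and CRABP2 was also lost without FOXC1 replicate 2 (0.107) and CYP26A1 without FOXC1 replicate 1 (0.0956), with median centring (0.165) and without a variance trend (0.0568). With quantile normalization or median centring 7 of the 21 passed.

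Of 15 measured retinoic acid target genes 4 fell and 1, CYP26A1, rose, with a median log2 change of -0.04 and 33.3% called against 31.4% of all genes. RARB, CRABP2, CYP26A1, CYP26B1, DHRS3 and STRA6 stand in both lists. PLAAT4, a retinoid-inducible phospholipase also known as RARRES3, gave 259 and 260 in vector and 128 and 104 in FOXC1 cells, a 2.10-fold fall (log2 -1.07 ± 0.11 SE, limma adjusted p = 1.37e-07). The homeobox gene MEIS1 fell 1.24-fold, CRABP2 1.17-fold and transglutaminase TGM2 1.12-fold. MEIS1 lost its call without vector replicate 2 (limma adjusted p = 0.0634), and without vector replicate 2 the list had 2 calls, against 3 without vector replicate 1. TGM2 lost its call without a variance trend (limma adjusted p = 0.0532).

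Other enzymes that act on aldehydes or further carbonyl compounds include aldo-keto reductases, alcohol dehydrogenases and carbonyl reductases. Of 16 measured 5 fell and 0 rose by limma at an adjusted p of 0.05, and 0 were higher at an unadjusted p of 0.05 (median log2 -0.04). The 5 calls are 31.2% of the list, against 31.4% of all genes. AKR1C3, a ketosteroid reductase that also reduces retinaldehyde, gave 1260 and 1248 in vector and 291 and 274 in FOXC1 cells, a 4.26-fold fall (log2 -2.09 ± 0.07 SE, limma adjusted p = 1.07e-15). AKR1C1 gave 435 and 457 in vector and 182 and 155 in FOXC1 cells, a 2.51-fold fall (log2 -1.33, but -0.73 as the mean over its probe sets). The AKR1C genes are near-identical in sequence, so that signal could be shared between their probe sets, and AKR1C2 (125 and 162 against 132 and 175) did not pass. Aldehyde oxidase AOX1 fell 1.21-fold, CBR4 1.22-fold and ADH5, the glutathione-dependent formaldehyde dehydrogenase, 1.08-fold. The log2 change of CBR4 (-0.29) was -0.41 without FOXC1 replicate 1 and -0.16 without FOXC1 replicate 2. The calls of CBR4 and ADH5 were lost without vector replicate 1 (limma adjusted p = 0.0776 and 0.144) and without FOXC1 replicate 2 (0.119 and 0.141), which left 3 calls, and ADH5 was also lost without vector replicate 2 (0.219). Both were lost without a variance trend (0.105 and 0.162).

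ALDH3A1 is a known target of the aryl hydrocarbon receptor, a ligand-activated factor that pairs with ARNT. Of 7 measured genes of this pathway 4 fell and 0 rose by limma at an adjusted p of 0.05, and 0 were higher at an unadjusted p of 0.05 (median log2 -0.13), while over all genes 15.5% passed as lower and 15.9% as higher. AHR gave 5525 and 5528 in vector and 4832 and 4766 in FOXC1 cells (log2 -0.20 ± 0.03 SE, limma adjusted p = 1.37e-05). ARNT gave 3472 and 3464 in vector and 2996 and 2977 in FOXC1 cells (log2 -0.21 ± 0.04 SE, limma adjusted p = 5.71e-05). Both genes had little spread within groups and no overlap. CYP1A1, the classical target, fell 1.23-fold and the feedback inhibitor TIPARP 1.09-fold, and CYP1B1, CYP1A2 and NQO1 did not pass. Above the 50th percentile of signal 3 of 4 genes of the pathway passed, against 4820 of 9328 genes. The call of CYP1A1 was lost without vector replicate 1 (limma adjusted p = 0.0629) and without vector replicate 2 (0.0914), and that of TIPARP without a variance trend (0.103).

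For ALDH1L1 and ALDH1L2 the related list was folate one-carbon and serine synthesis, of which 14 genes were measured, 6 rose and 1 fell (median log2 0.08), 50% called against 31.4% of all genes. The mitochondrial folate enzyme MTHFD2 gave 3763 and 3632 in vector and 4436 and 4376 in FOXC1 cells, a 1.19-fold rise (log2 0.25 ± 0.03 SE, limma adjusted p = 4.03e-06). Thymidylate synthase TYMS rose 1.18-fold and the serine synthesis enzyme PSAT1 1.17-fold, while the cytosolic SHMT1 fell 1.17-fold. The call of PSAT1 was lost without a variance trend (limma adjusted p = 0.0549), under which 4 of the 14 passed. With median centring, and in the fit over all rows, 5 of the 14 passed. Above the 50th percentile of signal 6 of 11 passed, against 4820 of 9328 genes.

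Among 18 other measured genes used as breast stem cell markers 3 rose and 7 fell (median log2 -0.07). The share called was 55.6% against 31.4% of all genes. Above the 50th percentile of signal 4820 of 9328 genes passed, but the 55.6% is not a share at that limit. It also counts dimmer markers, such as LGR5 (percentile 28.4, passed) and PROM1 (percentile 5.61, did not pass). PROCR, the protein C receptor, gave 2196 and 2143 in vector and 2942 and 2890 in FOXC1 cells, a 1.34-fold rise (log2 0.42 ± 0.04 SE, limma adjusted p = 2.49e-08). The Wnt-linked receptor LGR5 fell 1.92-fold, from 427 and 420 to 223 and 203 (log2 -0.94 ± 0.09 SE, limma adjusted p = 3.82e-08). The adhesion molecule EPCAM fell 1.49-fold and the transcription factor KLF4 1.24-fold. The other calls were CD44, the hyaluronan receptor, and ITGB3, which rose 1.17-fold and 1.16-fold, and the integrin chain ITGA6 (1.23-fold), CD24 (1.19-fold), SOX9 (1.16-fold) and SNAI2 (1.08-fold), which fell. Low CD24 beside high CD44 and high ITGA6 are both used as breast stem cell phenotypes. ITGB3 lost its call without vector replicate 1 (limma adjusted p = 0.128), without vector replicate 2 (0.152), without FOXC1 replicate 1 (0.0568) and with median centring (0.0846), CD24 without vector replicate 1 (0.109) and without a variance trend (0.0676), and SNAI2 without vector replicate 2 (log2 -0.065, adjusted p = 0.238) and without a variance trend (0.2). Stem cell activity was not measured.

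**Figure D5:**
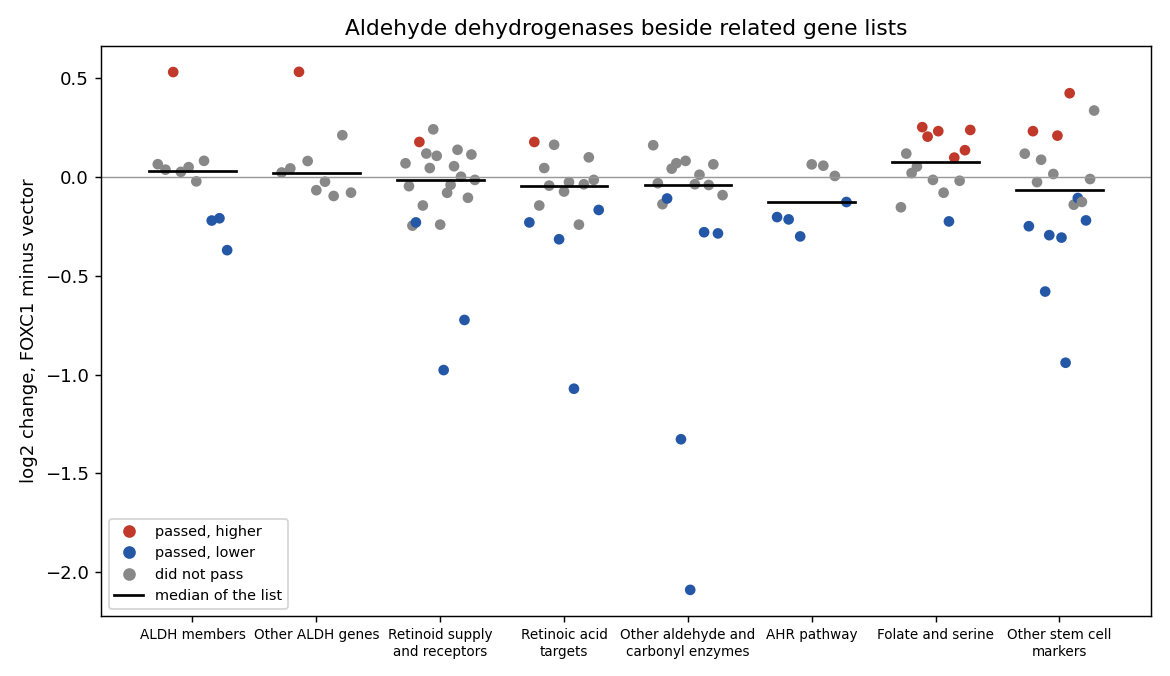
Log2 change, FOXC1 minus vector (vertical axis), of every measured gene (points, spread in alphabetical order) in the aldehyde dehydrogenase members and 7 related lists; black bars are list medians and colour marks genes that passed. The members stay between -0.37 and 0.53, while AKR1C3 at -2.09, AKR1C1 at -1.33 and PLAAT4 at -1.07 lie lowest among the related genes.

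The arrays gave median signals from 489 to 512. The line's markers CAV1, CD44, EGFR and VIM lay at or above percentile 90.0 of brightness, ESR1 and PGR at percentiles 23.3 and 6.52, and CDH1 gave 270 to 287, near the 25th percentile signal of 277, while ERBB2 (percentile 60.2) and KRT8 (96.7), also set down as low markers, were not dim. No FOXC1 probe set was used here, so the groups rest on the labels without a check of FOXC1 itself. Genes listed as cell type markers also moved between the groups. For comparison, 15.9% of all genes passed as higher and 15.5% as lower. All 5 luminal epithelial markers passed as lower, with summed signals of 15913 and 15794 in vector and 13560 and 13201 in FOXC1 cells. The largest signals among them were those of KRT18 and KRT19, at percentiles 96.6 and 87.8, so they were bright in this line. Of 4 leukocyte markers the dim PTPRC, at percentile 4.37 of brightness, passed as higher. The leukocyte sums were 991 and 1138 in vector and 1113 and 1131 in FOXC1 cells. Of 4 fibroblast markers the dim DCN, at percentile 9.13, passed as higher, with sums of 1132 and 1119 against 1169 and 1199. Of 3 endothelial markers PECAM1 passed as lower, with sums of 2167 and 2444 against 1749 and 1735. The lowest signal of any probe set was 4.78e-05 to 6.63e-05 by array, so a signal above 0 alone does not show that a marker was expressed. The part of these markers in the changes of the aldehyde dehydrogenases was not tested. All samples are labelled as the MDA-MB-231 line. In such bulk samples fewer cells that express a gene and less of its RNA per cell cannot be told apart.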

How the data were processed

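Total RNA of 4 MDA-MB-231 samples, 2 transfected with a FOXC1 plasmid and 2 with vector, was hybridised to Affymetrix gene arrays. Per the submitters' processing notes and the labels, the authors used the PLIER algorithm in Affymetrix Expression Console, and deposited probe set intensity as linear PLIER signal. The normalization options and software versions were not stated. Since signals of dim probe sets came near 0, 16 was added before log2, which shrinks the folds of dim genes.

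Of 33297 probe sets the 21214 with a gene symbol were fitted in R 4.3.3 with limma 3.58.1 (lmFit, eBayes with a variance trend, two-sided), adjusting by Benjamini-Hochberg over all of them. The fit was tested on simulated data. Gene counts use probe sets with 1 symbol, the brightest per gene. Precision is limited by 2 arrays per group. The variance of each probe set was drawn toward that of probe sets of similar signal, with 18.1 prior against 2 residual degrees of freedom. The SEs, intervals and p-values from limma therefore rest mostly on the spread of other probe sets between these arrays, which may be technical. Replicate numbers did not pair the arrays (correlation of deviations -0.015).

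The members and lists were chosen with earlier results of these data known. All members are named. Of each list up to 4 genes that passed, the largest changes first, and all where 5 or fewer passed, are named. CD44, ITGB3, ITGA6, CD24, SOX9 and SNAI2 are named outside that rule, as are chromosomal neighbours and genes that did not pass, all chosen after their values were seen. Promoters and gene order came from RefSeq tables of GRCh38.p14.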

Additional observations from a re-analysis of the deposited data

How the results depend on the processing

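ALDH1A3, ALDH3A2 and ALDH7A1 kept their direction and call under every alternative run, namely quantile normalization, median centring, an offset of 1 or 64, dropping probe sets below the 25th or the 50th percentile, eBayes without a trend or robust, the replicate block, leaving out each array, the mean over probe sets, all rows and an adjusted p of 0.10. A gene that had passed could not fail at 0.10, and the mean over probe sets left ALDH3A2 and ALDH7A1 unchanged. Of the 10 members 4 passed with the replicate number as a block, as in the fit without it, and between 3 and 4 when 1 array was left out. ALDH3B1 kept its log2 change of -0.21 without a variance trend and in the fit over all rows but lost its call, and ranged from -0.27 to -0.15 when 1 array was left out. Members that did not pass changed sign in places. ALDH1A2 was -0.031 with quantile normalization and -0.0046 with median centring, ALDH1B1 was -0.016 with median centring, and ALDH1L2 was -0.0024 with quantile normalization. When 1 array was left out, ALDH1A1 ranged from -0.11 to 0.24, ALDH1A2 from -0.012 to 0.086, ALDH1L2 from -0.10 to 0.20, ALDH2 from -0.072 to 0.027 and ALDH3A1 from -0.0027 to 0.17. Without a variance trend 3251 genes passed rather than 5777, 3 rather than 5 of the aldo-keto and carbonyl reductase list and 4 rather than 7 of the folate list. Above the 50th percentile of signal, where fewer genes were tested, 2 of 6 genes of the aldo-keto and carbonyl reductase list and 1 retinoic acid target passed. AKR1C1, AKR1C3, CBR4, PLAAT4, MEIS1, CRABP2 and CYP26A1 lay below that limit, so they were not tested there. In the fit over all rows 3 of the aldo-keto list, 3 retinoic acid targets and 2 retinoid genes passed. Of the other aldehyde dehydrogenase genes 2 passed above the 25th percentile and with the replicate block, 3 with quantile normalization or median centring, and 4 at an adjusted p of 0.10. Of the retinoid list 7 passed with either scaling. When 1 array was left out, the counts ranged from 3 to 7 (aldo-keto and carbonyl reductases), 2 to 5 (retinoic acid targets), 2 to 4 (retinoid list) and 1 to 2 (other aldehyde dehydrogenases). The causes were not tested. Leaving out an array left 1 group with 1 array, which was assumed to vary like the other group. ALDH1A1, ALDH1A2 and ALDH1L2 lay below the 25th percentile and ALDH3A1 below the 50th, so those filters gave them no value.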
